A study of Oryza sativa with 12 samples.

Results

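The SAPK genes encode the stress-activated protein kinases of rice, the SnRK2 family of the abscisic acid (ABA) pathway. They were taken as the probe sets that the array annotation ties to exactly 1 gene whose RefSeq symbol or synonym is SAPK1 to SAPK10, with or without the Os prefix. All 10 genes were found, each with 1 such probe set, among 17905 genes that have a probe set of their own and 57194 probe sets tested. Their RefSeq locus symbols are LOC4333017 (OsSAPK1), LOC4343944 (OsSAPK2), LOC4349411 (OsSAPK3), LOC4324934 (OsSAPK4), LOC4337502 (OsSAPK5), LOC4329630 (OsSAPK6), LOC4335877 (OsSAPK7), LOC4334218 (OsSAPK8), LOC4352660 (OsSAPK9) and LOC4333435 (OsSAPK10). Flag leaves of 10-week-old rice plants (Oryza sativa) were profiled on 12 Affymetrix rice arrays, 3 per group. The groups, as labelled, were PSARK::IPT plants left without water for 3 days (IPT_stressed), well-watered PSARK::IPT plants (IPT_watered), wild-type plants left without water for 3 days (WT_stressed) and well-watered wild-type plants (WT_watered). PSARK::IPT places isopentenyltransferase, an enzyme of cytokinin synthesis, under a promoter of a senescence-associated receptor kinase, so the transgene is active mainly in ageing or stressed leaves. Water was withheld before anthesis from greenhouse plants of both genotypes. The number of transformed lines behind the PSARK::IPT samples was not given in the sources used here.

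In the core ABA pathway, ABA binds PYL receptors, and the receptors then block the clade A PP2C phosphatases that keep SnRK2 kinases inactive. The released kinases phosphorylate bZIP transcription factors and ion channels, which turn on protective genes and close stomata. Rice SnRK2 kinases fall into subclass I (OsSAPK4 to OsSAPK7), subclass II (OsSAPK1 to OsSAPK3) and subclass III (OsSAPK8 to OsSAPK10). All respond to hyperosmotic stress at the protein level, and those of subclass III are also activated by ABA itself. Kinase activity is set largely by phosphorylation, which transcript arrays do not measure.

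Values are log2 RMA values throughout, n is 3 arrays per group, errors of means are SDs and errors of differences are limma's moderated SEs. A gene was called where limma's Benjamini-Hochberg adjusted p over all 57194 probe sets was under 0.05. The level of foreign-sequence probe sets (the 95th percentile of 106 of them, reporters included) marked background, at 3.34 in IPT_stressed, 3.15 in IPT_watered, 4.10 in WT_stressed and 3.62 in WT_watered. Of 6 leaf marker genes 5 lay above background in every group, with RBCS, the small subunit of Rubisco, at 13.04 to 13.30. Of 15 panicle and floral organ genes 4 or 5 lay above it, and of 8 anther genes 3 to 5, and some of those above it differed in mean between the labelled genotypes. The floral organ factor MADS1 averaged 6.46 in IPT_stressed and 4.27 in WT_stressed, and 6.59 in IPT_watered and 5.39 in WT_watered. MADS16 averaged 5.53 in IPT_stressed and 4.64 in WT_stressed, and 5.82 in IPT_watered and 4.91 in WT_watered, whereas MADS4 averaged 3.88 in IPT_stressed and 5.03 in WT_stressed, and 3.83 in IPT_watered and 4.51 in WT_watered. GAMYB of the anther list averaged 5.63 in IPT_stressed and 4.34 in WT_stressed, and 5.73 in IPT_watered and 4.90 in WT_watered. The array sums of the floral list, of which most genes lie at background, were 51.1 to 53.7 in the IPT groups and 50.9 to 53.4 in the wild-type groups. The part of other organs in the SAPK differences was not tested. The reporter probe set RPTR-Os-K01193-1_at, which matches a foreign sequence, averaged 10.16 in IPT_stressed, 2.08 in IPT_watered, 8.98 in WT_stressed and 3.48 in WT_watered, where replicate 3 alone read 6.03. It was high in both stressed groups and low in both watered groups, whichever the labelled genotype. Every direction below is a direction between groups as labelled.

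Array quality also differed between the labelled genotypes. The excess of the 3' over the 5' GAPDH control probe set was 3.34 to 4.29 on the IPT arrays and 4.86 to 7.30 on the wild-type arrays. The Bio spike-in controls averaged 8.47 in IPT_stressed and 8.44 in IPT_watered, against 11.77 in WT_stressed and 10.89 in WT_watered. The SD over all tested probe sets was 2.21 in IPT_stressed and 2.18 in IPT_watered, against 1.95 in WT_stressed and 2.06 in WT_watered. Beside these, probe sets with a mean of at least 5 had a median difference of 0.52 between IPT_stressed and WT_stressed and of 0.20 between IPT_watered and WT_watered, against -0.16 and -0.08 over all probe sets. The part of these array properties in the SAPK differences cannot be told apart from that of the labelled genotype.

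**Figure D1:**
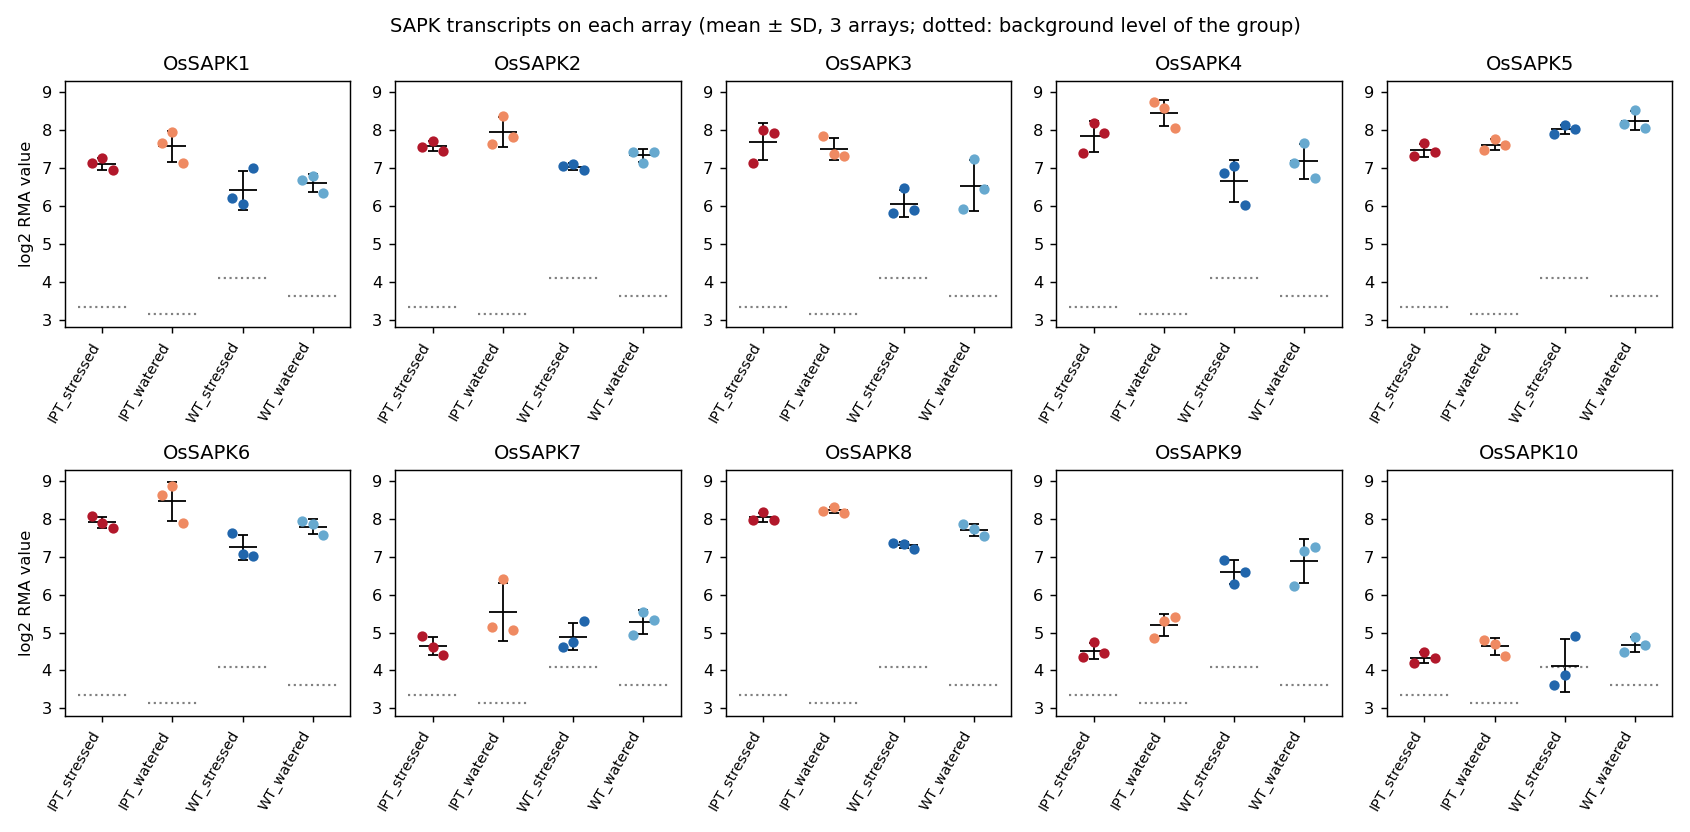
Log2 RMA values of the 10 SAPK genes on each of the 12 arrays (points), with the group mean and SD (black) and the background level of each group (dotted). OsSAPK9 read 4.34 to 5.42 on the 6 IPT arrays, below its 6.22 to 7.27 on the 6 wild-type arrays.

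Whether the labelled genotypes differed in SAPK transcript levels was asked within each water condition. Without water, 6 SAPK genes were called higher in IPT_stressed than in WT_stressed (OsSAPK1, OsSAPK2, OsSAPK3, OsSAPK4, OsSAPK6 and OsSAPK8) and 2 were called lower (OsSAPK5 and OsSAPK9). Of all tested probe sets 46.1% were called in this comparison, 19.3% higher and 26.7% lower, and of those with a mean of at least 5 the shares were 45.7% higher and 6.57% lower. When watered, 4 were called higher in IPT_watered than in WT_watered (OsSAPK1, OsSAPK2, OsSAPK4 and OsSAPK8) and the same 2 genes, OsSAPK5 and OsSAPK9, were called lower. Here 19.2% of all probe sets were called, 10.3% higher and 8.9% lower, and among those with a mean of at least 5 the shares were 20.9% higher and 7.46% lower. The median difference of the 10 genes was 0.60 without water and 0.56 when watered. These 2 comparisons share no arrays, but both carry the difference in array quality between the labelled genotypes and both use 1 estimate of the spread.

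OsSAPK9, a subclass III kinase whose overexpression has been linked to drought tolerance in rice, had the largest difference of the family in both water conditions. Its log2 values were 4.34, 4.75 and 4.47 in IPT_stressed and 6.92, 6.28 and 6.61 in WT_stressed. They were 4.86, 5.32 and 5.42 in IPT_watered and 6.22, 7.17 and 7.27 in WT_watered. No IPT array reached the lowest wild-type array, and all 4 group means lay above background. The log2 difference was -2.08 (SE 0.27, limma adjusted p = 1.73e-04) without water, which is 4.23-fold lower in IPT_stressed. When watered it was -1.69 (SE 0.27, adjusted p = 0.00165), 3.22-fold lower in IPT_watered. Both calls were kept when each of the 6 compared arrays was left out in turn, with differences of -2.24 to -1.92 without water and -2.02 to -1.49 when watered. After quantile normalization, which removes the unequal spreads, the differences were -2.49 and -1.88. With the GAPDH excess as a covariate they were -2.78 (adjusted p = 0.0741) and -2.23 (adjusted p = 0.110). The probe set has the suffix _s_at, the type that can match transcripts of more than 1 gene, although the annotation lists OsSAPK9 alone.

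OsSAPK5, a subclass I kinase, was the other gene called lower. It read 7.31, 7.66 and 7.43 in IPT_stressed and 7.91, 8.13 and 8.02 in WT_stressed. It read 7.48, 7.78 and 7.60 in IPT_watered and 8.16, 8.53 and 8.06 in WT_watered. The groups overlapped in neither water condition, and the spread within groups was small, with SDs of 0.11 to 0.25. The log2 difference was -0.55 (SE 0.15, adjusted p = 0.0130) without water and -0.63 (SE 0.15, adjusted p = 0.0151) when watered, or 1.47-fold and 1.55-fold lower in the IPT groups. The call without water was lost without IPT_stressed replicate 1 (adjusted p = 0.0561) and with equal array medians (-0.33, adjusted p = 0.115), and the watered one without IPT_watered replicate 1 (adjusted p = 0.0684) or WT_watered replicate 2 (adjusted p = 0.0577). Quantile normalization gave -0.97 and -0.79. With the GAPDH excess as a covariate both calls were also lost, at -0.19 (adjusted p = 0.807) without water and -0.35 (adjusted p = 0.617) when watered.

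Among the higher genes, OsSAPK3 and OsSAPK4 had the largest differences without water. OsSAPK3, a subclass II kinase, read 7.14, 8.02 and 7.94 in IPT_stressed and 5.82, 6.48 and 5.90 in WT_stressed, a log2 difference of 1.63 (SE 0.33, adjusted p = 0.00256) or 3.10-fold. This call was kept without each of the 6 compared arrays in turn and after quantile normalization, where the difference was 1.11 (adjusted p = 0.0329). In IPT_watered OsSAPK3 read 7.85, 7.37 and 7.32, against 5.91, 7.25 and 6.45 in WT_watered, with a difference of 0.97 (SE 0.33, adjusted p = 0.0611) that did not pass. It passed without WT_watered replicate 2, at 1.33 (adjusted p = 0.0196), with array weights (adjusted p = 0.0183), and with equal array medians, at 1.07 (adjusted p = 0.0453). After quantile normalization it was 0.79 and did not pass (adjusted p = 0.151).

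OsSAPK4, a subclass I kinase linked to ion balance under salt stress, read 7.40, 8.20 and 7.94 in IPT_stressed and 6.88, 7.06 and 6.02 in WT_stressed. It read 8.74, 8.58 and 8.07 in IPT_watered and 7.14, 7.65 and 6.74 in WT_watered. Every IPT array lay above every wild-type array of the same water condition. The log2 differences were 1.19 (SE 0.32, adjusted p = 0.0101) and 1.28 (SE 0.32, adjusted p = 0.0159), or 2.28-fold and 2.43-fold higher in the IPT groups. After quantile normalization the first was 0.73 and no longer passed (adjusted p = 0.133), while the second was 1.16 (adjusted p = 0.0411). The watered call was lost without IPT_watered replicate 1, IPT_watered replicate 2 or WT_watered replicate 3, with adjusted p of 0.0672, 0.0588 and 0.0525 in that order.

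OsSAPK8, a subclass III kinase that acts on the guard cell anion channel SLAC1, had the smallest spread of the family, with group SDs of 0.08 to 0.16. It read 7.96, 8.18 and 7.98 in IPT_stressed and 7.36, 7.34 and 7.22 in WT_stressed, a difference of 0.74 (SE 0.12, adjusted p = 8.17e-04). It read 8.20, 8.32 and 8.17 in IPT_watered and 7.86, 7.73 and 7.54 in WT_watered, a difference of 0.52 (SE 0.12, adjusted p = 0.0132). The groups did not overlap in either condition, but the median shift of probe sets with a mean of at least 5 was 0.52 without water. After quantile normalization the differences were 0.32 (adjusted p = 0.0984) and 0.39 (adjusted p = 0.0782), and the watered call was also lost without IPT_watered replicate 2 (adjusted p = 0.0612).

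OsSAPK1 and OsSAPK2, subclass II kinases with roles in ABA responses of seedlings, and OsSAPK6, a subclass I kinase that phosphorylates ABA-related bZIP factors, had differences of 0.54 to 0.98. OsSAPK1 averaged 7.12 ± 0.16 in IPT_stressed and 6.42 ± 0.51 in WT_stressed (difference 0.70, SE 0.26, adjusted p = 0.0441), and 7.58 ± 0.41 in IPT_watered and 6.61 ± 0.24 in WT_watered (difference 0.98, SE 0.26, adjusted p = 0.0219). OsSAPK2 averaged 7.58 ± 0.13 in IPT_stressed and 7.04 ± 0.09 in WT_stressed (difference 0.54, SE 0.18, adjusted p = 0.0302), and 7.95 ± 0.39 in IPT_watered and 7.34 ± 0.17 in WT_watered (difference 0.61, SE 0.18, adjusted p = 0.0358). OsSAPK6 averaged 7.91 ± 0.15 in IPT_stressed and 7.25 ± 0.33 in WT_stressed (difference 0.66, SE 0.24, adjusted p = 0.0426). Its watered means of 8.46 ± 0.52 in IPT_watered and 7.80 ± 0.19 in WT_watered did not pass (difference 0.66, SE 0.24, adjusted p = 0.0764). The arrays of OsSAPK1 overlapped without water, where WT_stressed replicate 3 lay above IPT_stressed replicate 3, and those of OsSAPK6 overlapped when watered.

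The calls without water of these 3 genes lay close to the threshold. That of OsSAPK1 was kept in 1 of the 6 fits that left out a compared array, without WT_stressed replicate 3, and was lost in the others with adjusted p of up to 0.154. That of OsSAPK2 was lost without IPT_stressed replicates 1 or 2 or WT_stressed replicates 1 or 3, with adjusted p of 0.0671, 0.0954, 0.0561 and 0.0667 in that order. That of OsSAPK6 was kept without WT_stressed replicate 1 alone, and its adjusted p reached 0.125 in the other fits. After quantile normalization the 3 differences without water were 0.15, 0.08 and 0.24, and none passed. With array weights OsSAPK2 and OsSAPK6 did not pass without water either (adjusted p = 0.109 and 0.108 in that order). When watered, OsSAPK1 lost its call without IPT_watered replicates 1 or 2 or WT_watered replicate 3 (adjusted p = 0.0728, 0.0951 and 0.0668 in that order). OsSAPK2 kept it there in 1 of 6 such fits, without IPT_watered replicate 1, and OsSAPK6 gained a call without IPT_watered replicate 3 (0.95, adjusted p = 0.0120).

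OsSAPK7, of subclass I, and OsSAPK10, a subclass III kinase that phosphorylates the factor bZIP72, were not called between genotypes. OsSAPK7 averaged 4.64 ± 0.25 in IPT_stressed and 4.90 ± 0.37 in WT_stressed, a difference of -0.25 with a 95% interval of -0.97 to 0.46. It averaged 5.55 ± 0.76 in IPT_watered, where replicate 2 read 6.43 and the other arrays 5.15 and 5.06, and 5.27 ± 0.31 in WT_watered. OsSAPK10 was the dimmest probe set of the family, with means of 4.34 ± 0.14 in IPT_stressed and 4.13 ± 0.69 in WT_stressed, and of 4.64 ± 0.22 in IPT_watered and 4.68 ± 0.20 in WT_watered. Of its WT_stressed arrays, 2 lay below the background level of that group and replicate 3 read 4.91. Its differences were 0.21 (95% interval -0.39 to 0.81) without water and -0.04 (-0.65 to 0.56) when watered. Without WT_stressed replicate 3 the first was 0.60 (adjusted p = 0.0161).

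**Figure D2:**
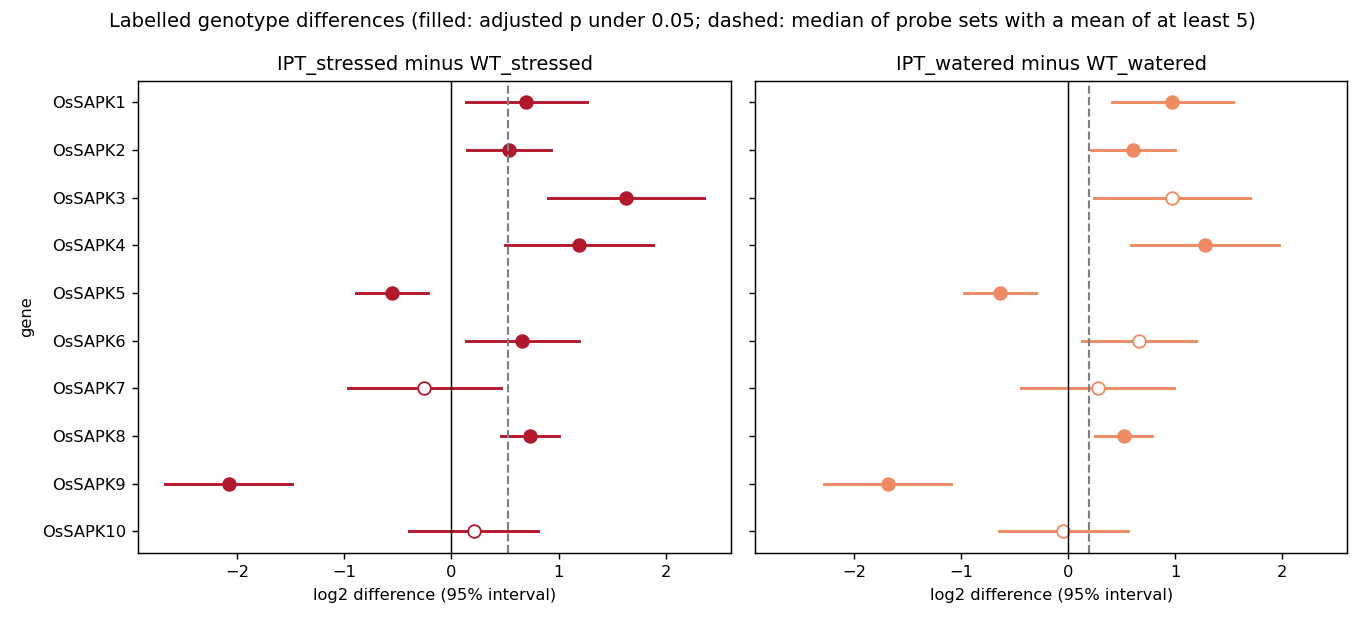
Log2 differences of the 10 SAPK genes between the labelled genotypes without water (left) and when watered (right), with unadjusted 95% intervals from limma, filled where the adjusted p was under 0.05. The dashed lines mark the median of probe sets with a mean of at least 5 (0.52 and 0.20); OsSAPK5 and OsSAPK9 lie to the left of 0 in both panels.

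By subclass, subclass II had higher means in the IPT groups for all 3 members in both conditions. Of these, 3 of 3 were called without water and 2 of 3 when watered, where OsSAPK3 had an adjusted p of 0.0611. Of all probe sets with a mean of at least 5, 45.7% and 20.9% were called higher in that order. After quantile normalization OsSAPK3 alone of this subclass was called without water, and OsSAPK1 alone when watered. Subclass I had OsSAPK4 higher and OsSAPK5 lower in both conditions, and subclass III had OsSAPK8 higher and OsSAPK9 lower in both. The arrays of the genotypes did not overlap in either condition for OsSAPK2, OsSAPK3, OsSAPK4 and OsSAPK8, which were higher on the IPT arrays, and for OsSAPK5 and OsSAPK9, which were lower. Without water 5 genes were higher and 2 lower with no overlap, where 55.4% of all probe sets had none (21% higher, 34.4% lower, and 48.6% and 7.99% of those with a mean of at least 5). When watered 5 were higher and 2 lower, where 42.4% of all probe sets had no overlap (18.2% higher, 24.3% lower, and 35% and 15.2% of those with a mean of at least 5). Over all tested probe sets 12.8% were higher without overlap in both conditions and 16.6% lower. This share in both conditions was not computed for probe sets with a mean of at least 5, whose shares in each condition differed as given. In bulk leaf RNA, fewer cells of a type and less RNA per cell cannot be told apart.

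The count of called genes depended on how the unequal spreads were treated. After quantile normalization 3 of 10 genes were called without water (OsSAPK3 higher, OsSAPK5 and OsSAPK9 lower) and 4 when watered (OsSAPK1 and OsSAPK4 higher, OsSAPK5 and OsSAPK9 lower), where 26.9% and 14.4% of all probe sets were called. The median difference of the 10 genes was then 0.15 and 0.43. With the GAPDH excess as a covariate 0 of 10 were called in either condition by limma, with 4 and 4 at an unadjusted p under 0.05. Of all probe sets 129 and 39 were then called, and 18.2% and 14.4% had an unadjusted p under 0.05. Leaving out IPT_stressed replicate 1 or 2 gave 4 and 5 called genes without water, against 8 with all arrays. Of all probe sets 34.6% and 37.7% were then called, against 46.1%. Leaving out IPT_watered replicate 1, IPT_watered replicate 2 or WT_watered replicate 3, the array with the raised reporter, gave 3, 2 and 3 called genes when watered, against 6. The shares of all probe sets called were 10.9%, 10.2% and 17.9%, against 19.2%.

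**Figure D3:**
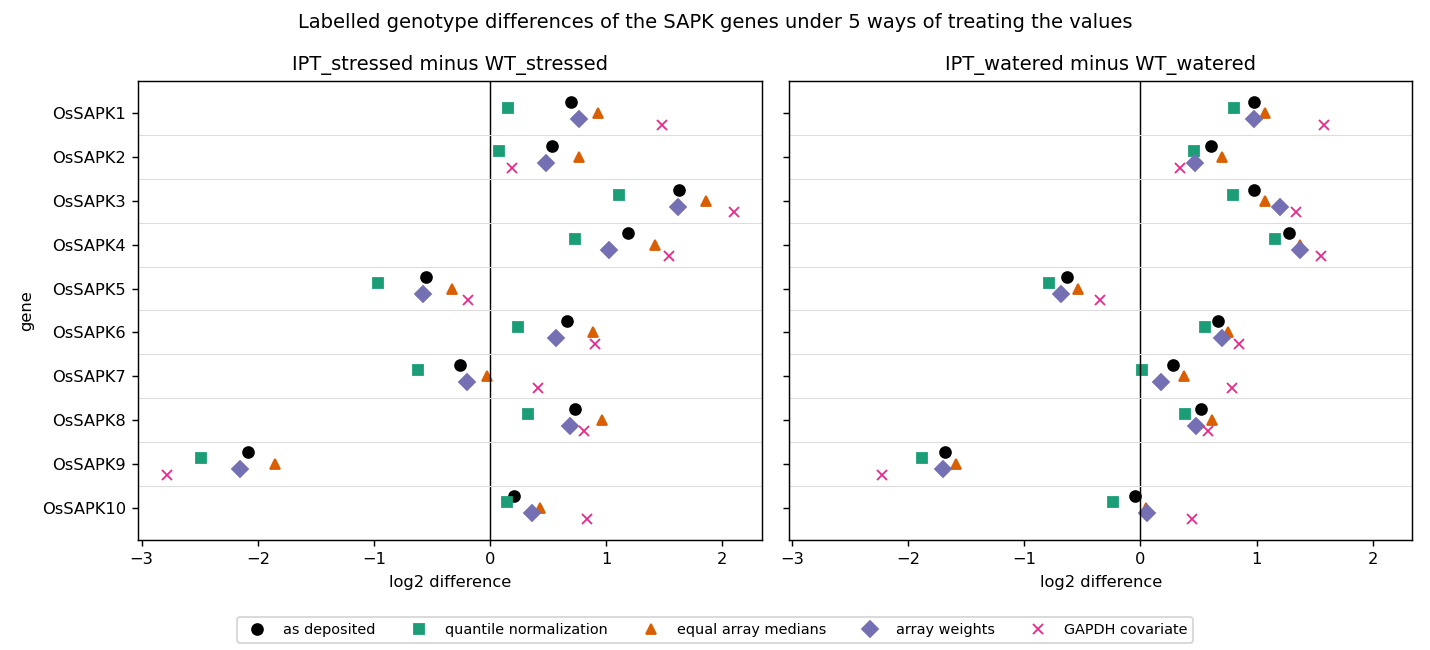
Log2 differences between the labelled genotypes for each SAPK gene, without water (left) and when watered (right), from the values as deposited, after quantile normalization, with equal array medians, with array weights and with the GAPDH excess as a covariate. The points of OsSAPK9 lie between -2.78 and -1.59 in all 5 settings, while those of OsSAPK7 and OsSAPK10 fall on both sides of 0.

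Withholding water was compared next within each labelled genotype. None of the 10 SAPK genes was called by limma in either one, where 0.177% of all probe sets were called in the IPT comparison and 0.42% in the wild-type comparison. At an unadjusted p under 0.05 stood 3 of the 10 genes in the IPT comparison, against 8.02% of all probe sets, and 2 of the 10 in the wild-type comparison, against 20.1%. In IPT_stressed 9 of 10 genes had lower means than in IPT_watered, with a median difference of -0.42, against 0.02 for probe sets with a mean of at least 5 and -0.03 over all. In WT_stressed all 10 had lower means than in WT_watered as deposited, although OsSAPK1 was higher by 0.10 after quantile normalization. The wild-type median was -0.39, against -0.28 for probe sets with a mean of at least 5 and 0.04 over all.

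In the IPT comparison the largest differences were those of OsSAPK7 and OsSAPK9. OsSAPK7 read 4.90, 4.62 and 4.41 in IPT_stressed and 5.15, 6.43 and 5.06 in IPT_watered, a difference of -0.91 (SE 0.33, adjusted p = 0.447) that was -0.47 without IPT_watered replicate 2. OsSAPK9, whose arrays are given above, had a difference of -0.68 (SE 0.27, adjusted p = 0.515). For these 2 genes every stressed array lay below every watered array, where 11.3% of all probe sets did so, 10% of those with a mean of at least 5, and 20.3% had no overlap in either direction. OsSAPK4 had -0.61 (SE 0.32, adjusted p = 0.706) and OsSAPK6 -0.55 (SE 0.24, adjusted p = 0.591). Both of these passed with array weights, at -0.76 and -0.64 with adjusted p of 0.0409 and 0.0418. With these weights 8.69% of all probe sets were called, against 0.177% without them. OsSAPK3 alone had a positive difference, 0.18 (SE 0.33, adjusted p = 0.999).

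In the wild-type comparison OsSAPK8 came closest to a call, at -0.40 (SE 0.12, adjusted p = 0.123). OsSAPK8 and OsSAPK2, at -0.30 (SE 0.18, adjusted p = 0.369), had no stressed array reaching a watered one, where 7.52% of all probe sets lay lower without overlap, 18.9% of those with a mean of at least 5, and 18.1% had no overlap in either direction. OsSAPK6 and OsSAPK10 both had -0.55, with SEs of 0.24 and 0.28 and adjusted p of 0.235 and 0.288. Without WT_stressed replicate 3 the OsSAPK10 difference was -0.94 and passed (adjusted p = 0.0240), but both remaining WT_stressed arrays, at 3.61 and 3.87, then lay at background. The remaining 6 genes had differences of -0.53 to -0.19 in wild type. The 95% intervals of the 10 genes reached from -1.22 to 0.37, so a change of more than 2-fold upward lay outside all of them.

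**Figure D4:**
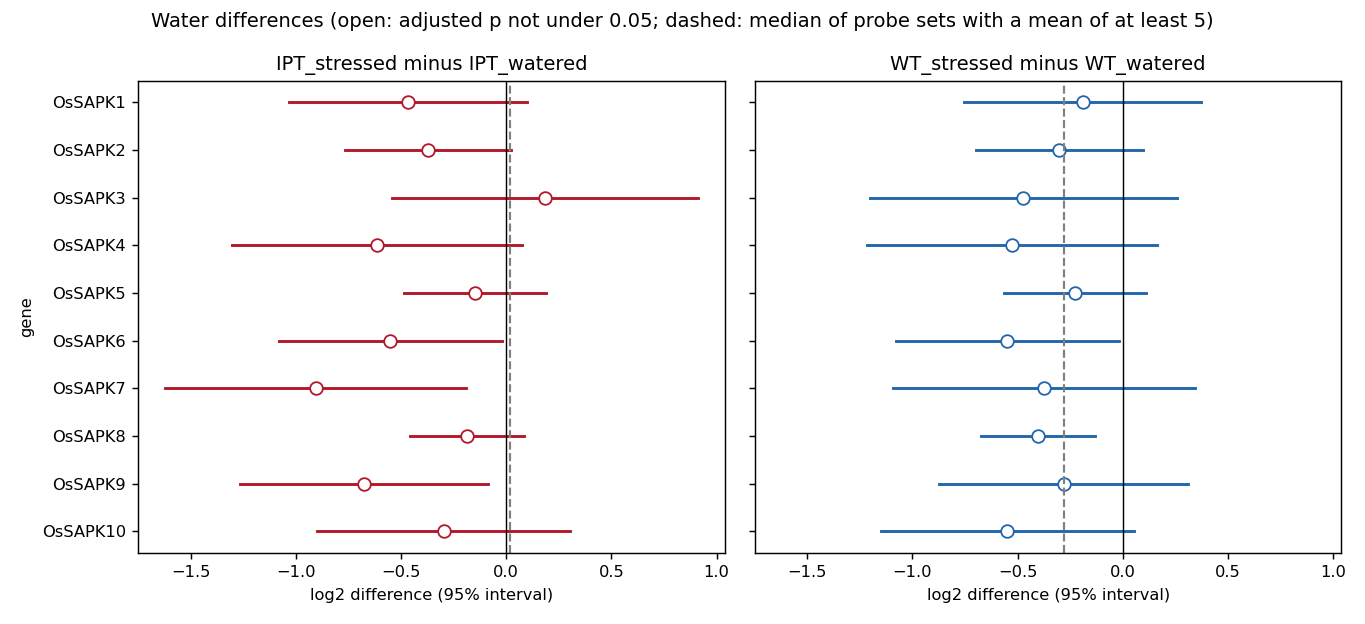
Log2 differences of the 10 SAPK genes between stressed and watered plants of PSARK::IPT (left) and wild type (right), with unadjusted 95% intervals from limma. All points are open, since no adjusted p was under 0.05, and the only point to the right of 0 is OsSAPK3 in PSARK::IPT.

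Whether the water response differed between the labelled genotypes was tested as the difference of both water differences. Limma called none of the 10 genes, none of which passed at an unadjusted p under 0.05 either, and 0% of all tested probe sets, of which 8178 passed at an unadjusted p under 0.05. The largest values were 0.66 for OsSAPK3 (SE 0.47, 95% interval -0.37 to 1.69) and -0.53 for OsSAPK7 (SE 0.46, 95% interval -1.55 to 0.48). The median over the family was -0.04, with 4 values above 0 and 6 below it, although 7 were above 0 with equal array medians. The intervals of both genes hold differences of 2-fold in the water response.

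The order of the group means also differed within the family. For OsSAPK1, OsSAPK2, OsSAPK4, OsSAPK6 and OsSAPK8 it was IPT_watered, IPT_stressed, WT_watered and WT_stressed from high to low. Of the neighbours in that order, IPT_watered and IPT_stressed overlapped in each of these 5 genes, whereas WT_watered and WT_stressed did not overlap for OsSAPK2 and OsSAPK8. IPT_stressed and WT_watered overlapped for OsSAPK4 and OsSAPK6 but not for OsSAPK1, OsSAPK2 and OsSAPK8. OsSAPK5 and OsSAPK9 shared another order, WT_watered, WT_stressed, IPT_watered and IPT_stressed. In both genes the step from WT_stressed to IPT_watered had no overlap, at 0.40 for OsSAPK5 and 1.40 for OsSAPK9, and OsSAPK9 also had none between IPT_watered and IPT_stressed. The share of all probe sets without overlap was not computed for pairs that differ in both genotype and water. Between the labelled genotypes within a water condition it was 55.4% without water and 42.4% when watered. For OsSAPK7 and OsSAPK10 every pair of neighbours overlapped.

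As a description over the 12 arrays, which share the 4 groups and the array properties given above, OsSAPK5 and OsSAPK9 had a Pearson correlation of 0.88. Of the 45 pairs of SAPK genes 33 had a positive correlation, and the 12 negative pairs each joined OsSAPK5 or OsSAPK9 to another member, down to -0.74 between OsSAPK8 and OsSAPK9. The highest was 0.92 between OsSAPK4 and OsSAPK8. For deviations from the group means, which leave out the differences between groups, the correlation was 0.65 for OsSAPK4 and OsSAPK8, 0.24 for OsSAPK5 and OsSAPK9 and -0.28 for OsSAPK8 and OsSAPK9. Every negative pair of OsSAPK5 was positive for deviations, from 0.05 with OsSAPK6 to 0.61 with OsSAPK3. Of the negative pairs of OsSAPK9, those with OsSAPK2 (0.10) and OsSAPK3 (0.25) became positive. Those with OsSAPK1, OsSAPK4, OsSAPK6 and OsSAPK8 stayed below 0. Among 2449 other genes with a name, those most like OsSAPK9 over the 12 arrays were OsYAB5, a YABBY factor (0.97), SLP16 (0.95) and the heat stress factor HSF03 (0.95). The SLP16 probe set lay below background in all 4 groups. Those most like OsSAPK6, the brightest member, were HSP18.6, a small heat shock protein (0.94), PDC (0.94) and IRE1, a sensor of endoplasmic reticulum stress (0.93).

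The partners of the SAPK kinases in ABA signalling were described from lists of gene names. Their differences come from the values as deposited, as do those of the SnRK1 kinases at the end. How they depend on normalization, the GAPDH covariate or single arrays was not examined. The PYL5 receptor was the only receptor matched by name, and it rose by 1.27 (SE 0.28, adjusted p = 0.00422) in IPT_stressed against WT_stressed, while its watered difference was 0.68 (adjusted p = 0.115). Of 7 clade A PP2C phosphatases, which hold SnRK2 kinases inactive, 3 were called higher without water and 4 when watered, with 0 lower in either. Of all probe sets with a mean of at least 5, 45.7% and 20.9% were called higher in these comparisons. PP2C09 rose by 1.42 (SE 0.34, adjusted p = 0.00568) and 1.45 (SE 0.34, adjusted p = 0.0116), PP2C53 by 0.88 (SE 0.18, adjusted p = 0.00236) and 0.72 (SE 0.18, adjusted p = 0.0155), and PP2C68 by 2.33 (SE 0.56, adjusted p = 0.00637) and 2.32 (SE 0.56, adjusted p = 0.0147). PP2C06 rose by 1.39 (SE 0.22, adjusted p = 0.00169) when watered and had 0.43 (adjusted p = 0.127) without water. The median of the PP2C list was 0.43 without water and 0.72 when watered, against 0.52 and 0.20 for all probe sets with a mean of at least 5. After quantile normalization the latter medians were 0.07 and 0.01.

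Downstream of the kinases, bZIP23, a bZIP factor of ABA-responsive genes, rose by 1.39 (SE 0.35, adjusted p = 0.00788) without water and 1.47 (SE 0.35, adjusted p = 0.0134) when watered, the 1 of 3 factors called. TRAB1 had 0.29 in both conditions. ABA8OX2, an ABA 8'-hydroxylase, rose by 0.73 (SE 0.18, adjusted p = 0.00794) and 0.58 (SE 0.18, adjusted p = 0.0452), the 1 of 2 breakdown genes called, and the zeaxanthin epoxidase ZEP of ABA synthesis had 0.03 and 0.43 with neither called. Of 8 ABA-responsive output genes, Dhn1, a dehydrin, rose by 0.86 (SE 0.32, adjusted p = 0.0453) without water and 1.39 (SE 0.32, adjusted p = 0.0116) when watered, while its second probe set, at background in all groups, was called lower in both conditions. RAB16D and RAB25, called lower without water, lay at background in all groups. The brightest probe sets of RAB16B, LEA3 and EM, which were not called, did so too. That of RAB21 lay at background in both wild-type groups and that of RAB16C in WT_stressed. Beside these calls, 19.3% of all probe sets were called higher and 26.7% lower without water, and 10.3% and 8.9% when watered. Among those with a mean of at least 5, 45.7% and 20.9% were called higher in that order. Between water conditions 0 genes of these lists were called in either genotype, where 0.177% (IPT) and 0.42% (wild type) of all probe sets were. All 7 PP2C genes had lower means in stressed than in watered plants, although PP2C51 lay at background in IPT_stressed and both wild-type groups. Their differences were -1.28 to -0.21 in the IPT comparison and -0.54 to -0.09 in the wild-type comparison. The PP2C medians were -0.53 and -0.33, against 0.02 and -0.28 for probe sets with a mean of at least 5. Of these PP2C differences, that of PP2C06 in the IPT comparison had the smallest p, at -1.28 (SE 0.22, adjusted p = 0.0525).

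**Figure D5:**
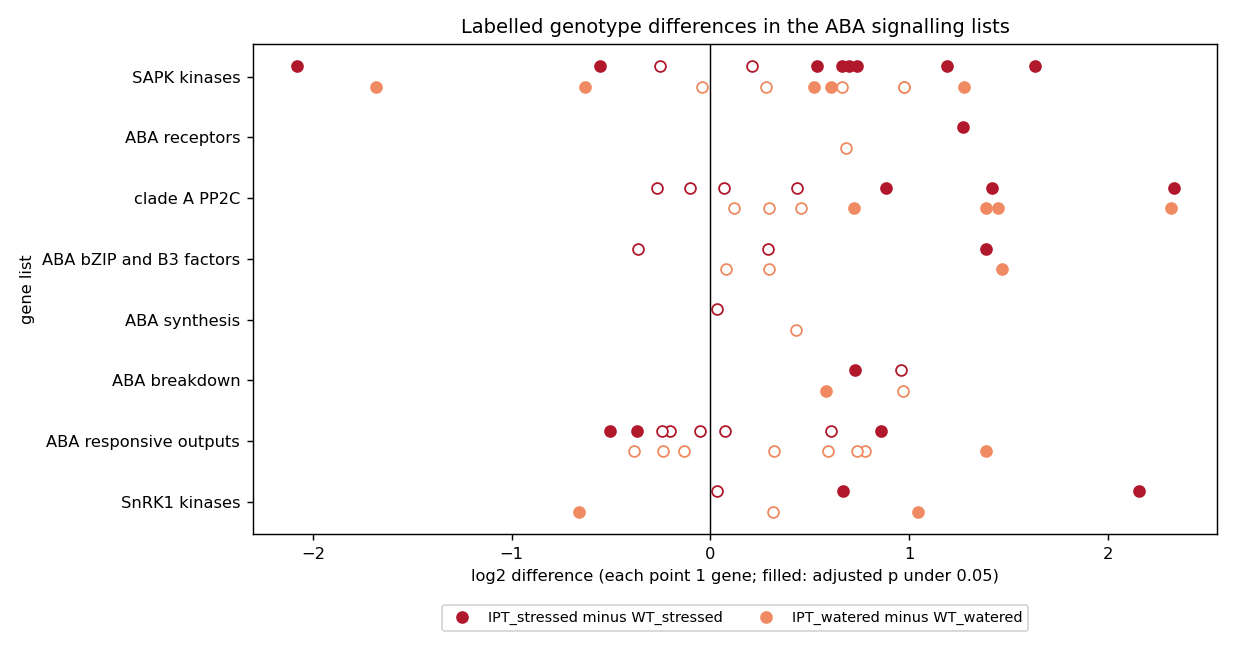
Log2 differences between the labelled genotypes for the SAPK genes and the genes of the other ABA signalling lists (1 point per gene, dark red without water, orange when watered, filled where the adjusted p was under 0.05). OsSAPK9, at -2.08 and -1.69, is the lowest point of all lists.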

How the data were processed

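The deposited table held 57381 probe sets on 12 arrays as log2 values made by the authors with RMA, per the submitters' processing notes; its version and any later scaling are not stated. Array means were equal but spreads were not. The 123 control and 64 reporter probe sets were used as checks, and the other 57194 were tested as deposited. Probe sets were named through the supplied array annotation and a RefSeq table of rice assembly ASM3414082v1, used for names alone. Of the tested probe sets, 22436 had 1 gene, 95 had several and 34663 were not listed.

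One mean per group was fitted over all 12 arrays with limma 3.58.1 in R 4.3.3 (lmFit, eBayes), with 5 contrasts. The fit was tested on simulated data, in the contrast of IPT_watered with WT_watered. Of 100 probe sets changed by a log2 of 1, 32 were recovered, and of 100 changed by 2, 78 were, with 9 false calls. The number of arrays limits the precision. The labels call the replicates biological, and no 2 arrays were identical.

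The SAPK members, the gene lists and the tests were chosen with earlier results of these data known. Named genes were all 10 members, the called members of each list (up to 4) or else those with the smallest p, and the 3 most alike genes of the brightest and the most variable member. The alias aba1 of TRAB1 was dropped from the ABA synthesis list. Alternatives were quantile normalization, equal array medians, a minimum mean of 5, trend and robust options, array weights, compared groups alone, the replicate block, the GAPDH covariate and leaving out each array.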

Additional observations from a re-analysis of the deposited data

Results flagged for a closer look

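A pair of reporter probe sets for foreign sequences, tested in no comparison above, gave a signal on arrays labelled wild type. Both are among the 106 probe sets behind the background level, and that level was not computed without them. RPTR-Os-K01193-1_at averaged 8.98 in WT_stressed (8.71 to 9.19), against 3.48 in WT_watered and a background level of 4.10 in WT_stressed. RPTR-Os-AF292559-4_s_at averaged 7.68 in WT_stressed (7.03 to 8.20), against 2.61 in WT_watered. Its averages were 7.97 in IPT_stressed and 2.11 in IPT_watered, so it too was high in both stressed groups and low in both watered groups. Whether the PSARK::IPT construct holds either sequence was not given in the sources used here. No SAPK gene had opposite, non-overlapping water responses in the labelled genotypes.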

How the results depend on the processing

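The choice of the second brightest probe set was not run, because each SAPK gene has 1 probe set. The number of SAPK genes called without water was 3 after quantile normalization and 0 with the GAPDH covariate, and 4 to 8 with 1 array left out. Of all probe sets 26.9%, 0.226% and 33.9% to 48.2% were called in these settings. When watered the number of SAPK genes called was 0 with the covariate and 2 to 6 with 1 array left out, where 0.0682% and 10.2% to 24.8% of all probe sets were called. The median difference without water was 0.15 after quantile normalization. The count for the IPT water comparison was 2 with array weights, where 8.69% of all probe sets were called. That for the wild-type water comparison was 0 to 1 with 1 array left out. The 1 call came without WT_stressed replicate 3, where 4.05% of all probe sets were called. Equal array medians moved the median of all probe sets without water to 0.06, against -0.16 as deposited. Of the alternative values of single genes, 514 kept direction and call, 60 lost the call, 11 gained one and 9 changed sign, none of them called. Those were OsSAPK7 without water with the covariate (0.41), and when watered without IPT_watered replicate 2, where its left-out range was -0.16 to 0.52. For OsSAPK10 the left-out range was -0.055 to 0.60 without water and -0.14 to 0.082 when watered (0.058 without WT_watered replicate 2), where it was also 0.051 with equal medians, 0.059 with array weights and 0.45 with the covariate. OsSAPK1 was 0.10 in the wild-type water comparison after quantile normalization. Same-numbered arrays of different groups had correlations of deviations between -0.10 and 0.19, and 11 of 12 arrays correlated best with an array of their own number. With the replicate block 7 SAPK genes were called without water and 8 when watered, against 8 and 6 without it, with OsSAPK1 lost without water (adjusted p = 0.0595) and OsSAPK3 (adjusted p = 0.0397) and OsSAPK6 (adjusted p = 0.0324) gained when watered. Of all probe sets 46% and 19.1% were called with the block. No label says that a number marks a shared plant, batch or day. Fits of the compared groups alone were not run for the difference of water responses, which needs all 4 groups. Low signal limits OsSAPK10, near background in WT_stressed.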

Other observations

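The SnRK1 kinases, relatives of the SAPK kinases that act in energy signalling, showed how far probe sets listed for 1 gene can differ on these arrays. For SnRK1A the brightest probe set rose by 0.67 (SE 0.15, adjusted p = 0.00370) in IPT_stressed against WT_stressed, whereas its other probe set averaged 6.28 in IPT_stressed and lay at background in WT_stressed, so that no exact difference is given for it. For SnRK1B the brightest probe set had 0.03 without water and fell by 0.66 (SE 0.16, adjusted p = 0.0132) when watered, while its other probe sets rose by 2.10 and 2.31 without water and by 1.03 and 1.08 when watered. OSK3 rose by 2.16 (SE 0.23) and 1.04 (SE 0.23) in the same order on its brightest probe set. The other probe sets of SnRK1B and the brightest of OSK3 have the suffix _x_at, a type that can also match transcripts of other genes. Whether SnRK1B and OSK3 share signal on them was not tested. Of these 3 genes 2 were called higher without water, and 1 higher and 1 lower when watered. Among probe sets with a mean of at least 5, 45.7% were called higher without water, and 20.9% higher and 7.46% lower when watered. With 1 probe set per SAPK gene, no such comparison within a gene was possible for the kinases described above.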
